A study of Mus musculus with 4 samples.

Results

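Oleic acid, the common monounsaturated fatty acid of the diet, was compared with vehicle in mouse peritoneal macrophages by subtracting the log2 expression values of 1 control array from those of 1 oleic acid array. The comparison covered 11174 genes, out of 19938 with a probe that the array's annotation assigns to exactly 1 gene. Kept genes are those whose brightest array in the series reached log2 7.09, the median of all values; this measures brightness and does not call a gene detected. The 2 arrays compared are 2 of the 4 in the series. The other 2 hold macrophages given palmitic acid or linoleic acid.

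All groups were wild-type C57BL/6 mice of 8 to 12 weeks, injected in the peritoneum with 1 mL of 4% thioglycolate 3 days before the cells were collected, so that the cells were elicited by an irritant and were not those of an undisturbed cavity. Red cells were lysed, and cells that had not adhered were removed 3 h after plating. The oleic acid group received 500 µM oleic acid (18 carbons, 1 double bond) bound to bovine serum albumin at about 2 parts of fatty acid to 1 of albumin, for 6 h. The palmitic acid (16 carbons, 0 double bonds) and linoleic acid (18 carbons, 2 double bonds) groups had the same dose and time. The control is labelled as albumin alone, whereas the treatment protocol describes a vehicle of ethanol and KOH, and the labels do not settle whether it held albumin, ethanol and KOH together. RNA of 3 samples, with an RNA integrity number above 8.0, was pooled in each group, and the labels do not say whether the 3 came from separate mice. Each group was thus measured once, and no test, standard deviation or interval could be given for any difference below.

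A macrophage that takes up fatty acid activates it with coenzyme A and then stores it as triglyceride in lipid droplets, burns it in mitochondria or builds it into membranes. Fatty acids also bind the nuclear receptors of the PPAR family, which switch on genes for droplet coats, carnitine-dependent import and beta-oxidation. SREBP transcription factors drive the opposite supply route, the synthesis of cholesterol and fatty acids from acetyl-CoA. They are held in the endoplasmic reticulum by INSIG proteins when sterols are plentiful, and unsaturated fatty acids lower the output of the form that drives fatty acid synthesis.

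The arrays carried the marks of macrophages. All 20 macrophage markers listed, among them Adgre1, Cd68, Csf1r and Lyz2, passed the brightness filter, with a median difference of -0.0034 and a range from -0.09 (Adgre1) to 0.32 (Mertk, an efferocytosis receptor). Markers of other cells passed less often, with 2 of 9 measured B cell markers, 3 of 11 T and NK cell markers, 4 of 13 neutrophil markers, 2 of 12 eosinophil and mast cell markers, 5 of 9 dendritic cell markers and 10 of 15 mesothelial and fibroblast markers kept. Values of this kind have no true zero, so a dim marker is not an absent one. The array medians over all probes were 7.09 in the control and 7.07 with oleic acid, and the 2 arrays correlated at r = 0.996 over all probes. In bulk RNA, fewer cells of a type and less RNA per cell cannot be told apart.

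The promoters of the genes that dominate the lower side are shown first, since 11 enzymes of cholesterol synthesis were lower together. RefSeq windows of 300 bases (250 before and 50 after the annotated start, assembly GRCm38.p6) were searched on both strands for TCACNCCAC, a form of the sterol regulatory element that SREBP binds, and for CCAAT, the box bound by NF-Y, a known partner of SREBP; the patterns do not overlap in letters. Of the 11 genes, 9 had a window, and each of these 9 held a CCAAT box in it. Fdft1 and Sqle had no entry. In 8 of the 9 genes, 13 boxes in all had at least 20 upstream bases of the window on either side, and the one nearest the start is shown for each gene. No box of Sc5d had those bases on either side, and none is shown for it. The sterol regulatory element was found in Hmgcs1, 128 bases before its start, within the stretch chr13:119690194-119690242 on the plus strand. Capitals mark the motif, and ATTGG is CCAAT read on the other strand. Each stretch below is written 5′ to 3′ along its gene, and coordinates are those of the whole stretch, flanks included.
Hmgcs1, sterol regulatory element: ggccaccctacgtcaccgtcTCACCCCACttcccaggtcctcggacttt
Hmgcs1, CCAAT box 40 bases before the start (chr13:119690286-119690330, plus strand): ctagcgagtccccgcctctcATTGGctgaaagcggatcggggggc
Idi1, CCAAT box 40 bases before the start (chr13:8885541-8885585, plus strand): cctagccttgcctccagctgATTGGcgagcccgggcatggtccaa
Lss, CCAAT box 57 bases before the start (chr10:76531523-76531567, plus strand): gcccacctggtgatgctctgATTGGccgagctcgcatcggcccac
Cyp51, CCAAT box 24 bases before the start (chr5:4104702-4104746, minus strand): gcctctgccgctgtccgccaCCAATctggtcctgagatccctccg
Hsd17b7, CCAAT box 68 bases before the start (chr1:169969254-169969298, minus strand): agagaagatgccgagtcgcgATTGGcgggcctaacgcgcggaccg
Msmo1, CCAAT box 50 bases before the start (chr8:64733609-64733653, minus strand): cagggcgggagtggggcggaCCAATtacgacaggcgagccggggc
Mvd, CCAAT box 22 bases before the start (chr8:122443425-122443469, minus strand): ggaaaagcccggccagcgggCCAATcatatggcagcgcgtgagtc
Nsdhl, CCAAT box 104 bases before the start (chrX:72918392-72918436, plus strand): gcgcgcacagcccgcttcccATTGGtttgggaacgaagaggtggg

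Of the 17 cholesterol synthesis enzymes, 14 had an entry, some with more than 1 start, which gave 17 windows. CCAAT stood in 14 of these 17 windows (82.4%), against 37.4% of all 32851 windows of the same length. It stood in 19 of 28 windows (67.9%) of the genes past 1.5-fold on the lower side and in 14 of 46 (30.4%) of those past it on the higher side. The lower side includes the 11 lower cholesterol synthesis enzymes, of which 9 had CCAAT in a window. Its count therefore overlaps with that of the 17 windows and is not a separate observation. TCACNCCAC was in 1 of the 17 windows and in 1.24% of all windows. The direct repeat of AGGTCA with 1 base between, a form of the PPAR response element, was in 0 of 12 windows of the PPAR target list and in 0.0396% of all windows. A match is a description of letters and not a bound site, and a window without a match says only that these letters are not in it.

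The difference between oleic acid and control was small for most genes. Its median over all kept genes was 0.01, its robust SD (a spread set by the middle of the distribution) was 0.116, and 95% of the genes lay between -0.27 and 0.32 on the log2 scale. At least 1.5-fold higher were 42 genes, 0.376% of those kept, and at least 1.5-fold lower were 38, or 0.34%, together 0.716%. Above 0 were 55.3% of kept genes, and a list's share above 0 is to be read against that. A list's members past 1.5-fold are likewise to be read against the 0.376% and 0.34%. Of the 80 genes past 1.5-fold, 77 rested on a single probe. The 3 others gave like values by each of their probes: 0.61 and 0.65 for Glul, -0.91 and -0.80 for Fdft1, and -1.06 and -1.09 for Idi1.

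**Figure D1:**
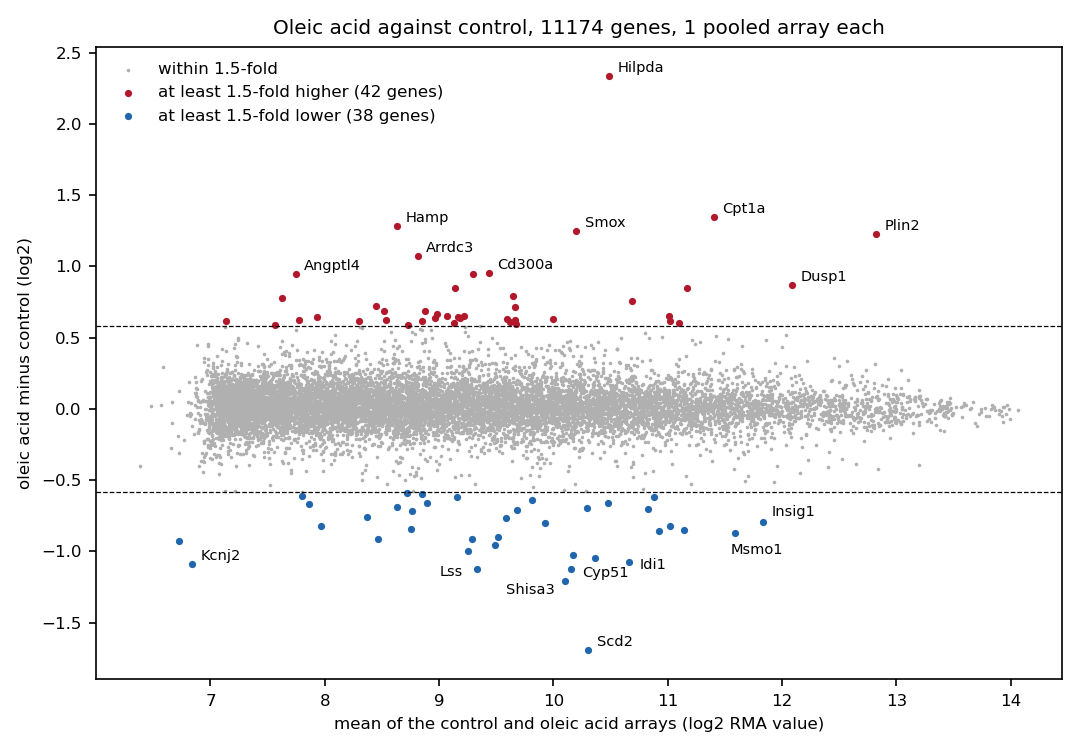
Each point is 1 of 11174 genes, with the mean log2 RMA value of the control and oleic acid arrays on the x axis and the oleic acid minus control difference (log2) on the y axis; dashed lines mark 1.5-fold. Hilpda stands alone at 2.34 and Scd2 lies lowest at -1.69, while grey points narrow toward bright genes.

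The plot of difference against level shows that the spread was widest among dim and middling genes. The robust SD was 0.121 for genes with a mean below log2 8, 0.112 between 10 and 11, and 0.0609 among the 147 genes above 13, of which 0 passed 1.5-fold. The threshold of 1.5-fold (log2 0.585) cut through a run of similar values. B3gnt5 (0.59), Mospd1 (0.59) and Acaa2 (0.60) lay just inside, and Hip1 (0.58), Fos (0.58) and Tnfrsf26 (0.58) just outside. On the lower side Pcyt2 (-0.59) and Nr4a3 (-0.60) were just inside, and Hmgn5, Mki67 and Plcb4 (each -0.58) just outside.

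Cholesterol synthesis had more members past 1.5-fold than any other list. All 17 measured enzymes passed the brightness filter, 11 of them lay at least 1.5-fold below the control with oleic acid and 0 above it, and their median was -0.85, against 0.01 over all kept genes and 0.34% of kept genes called lower. The lower enzymes ran from the start of the pathway to late steps, with exceptions, as follows.

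Hmgcs1, which makes HMG-CoA at the entry of the pathway, had log2 levels of 11.57 in the control, 10.72 with oleic acid, 10.69 with palmitic acid and 11.80 with linoleic acid. Oleic and palmitic acid thus lay together, below control and linoleic acid, and the difference from control was -0.85. In the mevalonate steps Mvk stood at -0.32 and Pmvk at -0.54, both short of 1.5-fold, whereas Mvd, the decarboxylase, had levels of 9.75, 8.75, 9.16 and 10.01 in the control, oleic, palmitic and linoleic acid arrays, a difference of -0.999. Idi1, the isomerase that makes the reactive isoprene unit, went from 11.20 in the control to 10.12 with oleic acid, beside 10.16 with palmitic and 11.26 with linoleic acid. Fdps, the farnesyl diphosphate synthase, was at -0.56.

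The committed sterol branch begins with Fdft1, the squalene synthase, which was at 11.35 in the control and 10.49 with oleic acid (-0.85). Sqle, the epoxidase and a slow step of the pathway, had levels of 10.69 in the control, 9.66 with oleic acid, 10.05 with palmitic acid and 10.90 with linoleic acid, 2.03-fold lower with oleic acid than in the control. Lss, which closes the sterol ring, had the largest difference of the list, with 9.90 in the control, 8.77 with oleic acid, 9.003 with palmitic acid and 10.25 with linoleic acid (-1.13). The oleic acid array was the lowest of the 4 for each of these 3 genes and the linoleic acid array the highest.

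The demethylation steps that follow were lower as well. Cyp51 had 10.72 in the control and 9.59 with oleic acid (-1.12), Msmo1 had 12.02 and 11.15 (-0.87), Nsdhl had 10.64 and 9.95 (-0.70), and Hsd17b7 had 10.89 and 9.84 (-1.05). Sc5d, a late desaturase, had 11.43 and 10.60 (-0.82). The exceptions were Ebp (0.03), Dhcr7 (0.02) and Tm7sf2 (-0.04). For each of them the 4 levels all lay within 0.25 of each other. Over the 17 enzymes, the oleic acid array was lowest of the 4 for 12, oleic acid lay below palmitic acid for 12, and the linoleic acid array was highest for 13. The median difference from the shared control was -0.85 for oleic, -0.59 for palmitic and 0.14 for linoleic acid.

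**Figure D2:**
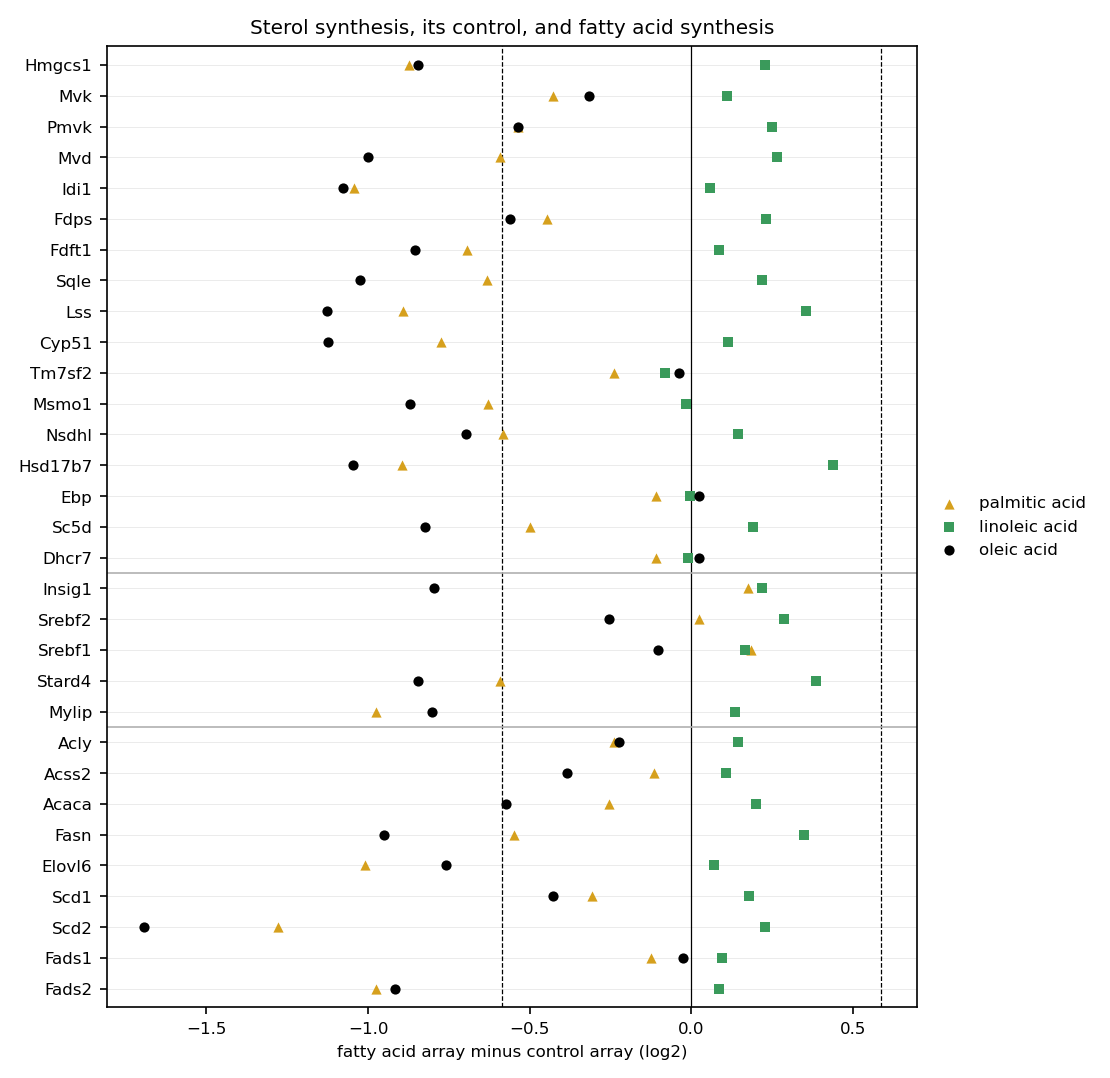
Difference of each fatty acid array from the 1 control array (log2, x axis) for enzymes of cholesterol synthesis (top block), genes that control sterol supply (middle) and enzymes of fatty acid synthesis (bottom); dashed lines mark 1.5-fold, and where symbols coincide the oleic acid circle lies on top. Oleic acid circles stand left of 0 for 29 of the 31 genes drawn, and linoleic acid squares right of it for 27.

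Genes that control sterol supply were split. Insig1, whose protein retains SREBP in the endoplasmic reticulum and which is itself an SREBP target, had log2 levels of 12.23 in the control, 11.44 with oleic acid, 12.41 with palmitic acid and 12.45 with linoleic acid. Oleic acid alone was low here, at -0.80, where palmitic acid was at 0.17 from the same control. Stard4, a carrier that moves cholesterol between membranes, was lower with oleic acid by a difference of -0.84 and with palmitic acid by -0.59. Mylip, a ubiquitin ligase gene induced by LXR, stood at 10.32 in the control and 9.52 with oleic acid (-0.80), with 9.35 for palmitic and 10.46 for linoleic acid. Aacs, which feeds ketone bodies into lipid synthesis, was at -0.66. The transcription factor genes themselves were nearer to 0, with Srebf2 at -0.25 and Srebf1 at -0.10. Of 16 kept genes in this list 4 were at least 1.5-fold lower (0.34% of kept genes were) and 0 higher, with a median of -0.06. Scap, Insig2, Npc1 and Npc2 lay between 0.11 and 0.13.

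In fatty acid synthesis, Scd2, a stearoyl-CoA desaturase that itself makes oleic acid, had the lowest difference of any kept gene, with 11.15 in the control and 9.46 with oleic acid, 3.24-fold lower, beside 9.87 with palmitic acid and 11.38 with linoleic acid. Its paralogue Scd1 was at -0.43, from 9.20 to 8.77, and probes of such related genes may share signal. Fasn, the fatty acid synthase, had 9.96 in the control, 9.01 with oleic acid, 9.42 with palmitic acid and 10.31 with linoleic acid (-0.95). Fads2, the desaturase that starts polyunsaturated fatty acid synthesis, went from 9.75 to 8.83 (-0.92), whereas its neighbour in the pathway Fads1 was at -0.03. Elovl6, which elongates palmitic acid, went from 8.75 to 7.99 (-0.76), with 7.74 in the palmitic acid array. Acaca, the acetyl-CoA carboxylase, at -0.57, stayed within 1.5-fold. Of 16 kept genes in the list, 15 were below 0, with a median of -0.29. At least 1.5-fold lower were 4 (0.34% of kept genes were), and 0 were higher. With the 6 genes below the brightness filter added, that median was -0.13.

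LXR target genes, which answer to oxidised sterols, showed no single direction. Of 15 kept, 7 lay above 0 and 2 were at least 1.5-fold lower, Scd2 and Mylip, with a median of -0.02. The efflux transporter genes Abca1 (-0.20) and Abcg1 (0.26) were on opposite sides of 0 and within 1.5-fold. The 9 members found neither in the fatty acid synthesis nor in the sterol control list had a median of 0.04.

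On the storage and oxidation side, higher genes were few, and the largest differences were those of Hilpda, Cpt1a and Plin2. Hilpda, a droplet protein that inhibits triglyceride lipase, had log2 levels of 9.32 in the control, 11.66 with oleic acid, 11.49 with palmitic acid and 9.27 with linoleic acid, and was 5.05-fold higher with oleic acid than in the control. Plin2, the main droplet coat protein of macrophages, had 12.21, 13.43, 13.41 and 12.32 in the same order, 2.34-fold higher. Both genes divided the 4 arrays in the same way, with oleic and palmitic acid high and control and linoleic acid low. Pnpla2, the triglyceride lipase that Hilpda restrains, was at 0.45, and Plin3, another coat protein, at 0.22. The enzymes of triglyceride assembly differed little, with Dgat1 at 0.16, Dgat2 at -0.12, Gpat3 at 0.13, Gpat4 at 0.04, Lpin1 at -0.23 and Lpin2 at 0.24. Of 25 kept droplet and triglyceride genes, 2 were at least 1.5-fold higher (0.376% of kept genes were) and 20 were above 0, with a median of 0.08, and 0.07 over the 23 outside the PPAR target list.

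For the carnitine shuttle, Cpt1a, the gate of mitochondrial import, had levels of 10.73 in the control, 12.08 with oleic acid, 11.66 with palmitic acid and 10.84 with linoleic acid, 2.54-fold higher with oleic acid. Slc25a20, which carries acylcarnitine across the inner membrane, had 8.94, 9.51, 9.19 and 8.94, a difference of 0.57 that fell short of 1.5-fold. Cpt2, which restores the acyl-CoA inside, had 9.11, 9.30, 9.10 and 9.28 in that order, at 0.18 with oleic acid and 0.17 with linoleic acid. Oleic acid was thus the highest of the 4 arrays for all 3 shuttle genes, but for Cpt2 it was almost level with linoleic acid.

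Within the beta-oxidation spiral the differences were smaller. Acaa2, the thiolase that splits off acetyl-CoA, was the only other member past 1.5-fold, with 9.37 in the control, 9.97 with oleic acid, 9.54 with palmitic acid and 9.47 with linoleic acid. Its difference of 0.60 lay just inside the threshold. Etfdh, which passes electrons from the dehydrogenases to the respiratory chain, was at 0.41 and Etfb at 0.23, but Etfa at -0.07. The acyl-CoA dehydrogenases ordered from short to very long chain gave 0.29 for Acads, 0.21 for Acadm, 0.15 for Acadl and 0.03 for Acadvl. Hadha and Hadhb, the trifunctional protein, were at 0.01 and 0.05, and Eci2, an isomerase needed for unsaturated chains, was at -0.25, with its relative Eci1 at -0.02 and Decr1, the reductase for polyunsaturated chains, at 0.14. Of 22 kept genes, 18 were above 0, 2 of them past 1.5-fold, with a median of 0.09. The 15 members outside the PPAR target list had a median of 0.07. The oleic acid array was the highest of 4 for 15 of the 22 genes.

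**Figure D3:**
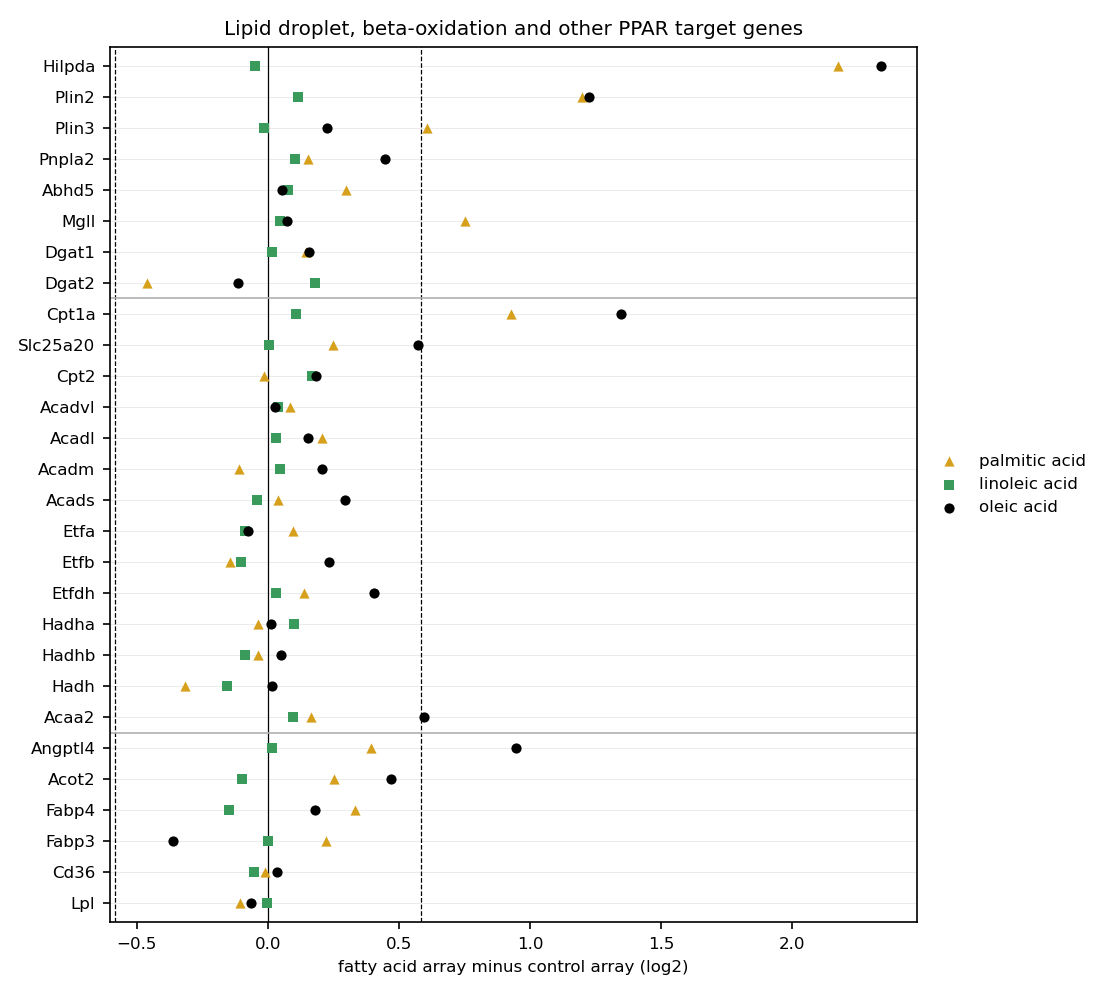
Difference of each fatty acid array from the 1 control array (log2, x axis) for lipid droplet genes (top block), carnitine shuttle and beta-oxidation genes (middle) and other PPAR target genes (bottom); dashed lines mark 1.5-fold, and the oleic acid circle lies on top. Hilpda (2.34), Cpt1a (1.35) and Plin2 (1.22) stand far to the right with oleic acid, palmitic acid triangles follow, and linoleic acid squares stay near 0.

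PPAR target genes as a list had a median of 0.41 over 15 kept genes, of which 13 were above 0. At least 1.5-fold higher were 5 (0.376% of kept genes were), and 0 were lower. Those 5 were Hilpda, Cpt1a, Plin2, Angptl4 and Acaa2, the last of them just inside the threshold at 0.60. Angptl4, a secreted inhibitor of lipoprotein lipase, had 7.27 in the control, 8.22 with oleic acid, 7.67 with palmitic acid and 7.29 with linoleic acid, the oleic acid array alone standing clear at 0.95. The list was not uniform: Acot2, a mitochondrial thioesterase, was at 0.47, Fabp4 at 0.18, the fatty acid uptake receptor Cd36 at 0.03, Lpl at -0.06 and Fabp3 at -0.36. The median was 0.32 over the 8 members outside the beta-oxidation list. It was 0.18 when the 4 dim members Acot1, Pdk4, Ucp3 and Vnn1 were added, so its size depends on the brightness filter. The receptor genes themselves lay near 0 or below, with Ppard at -0.04 and Pparg at -0.16. Ppara was below the brightness filter, at 6.24 in the control and 6.16 with oleic acid.

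Other genes of fatty acid handling stood near the arrays as a whole. Of 15 kept uptake, binding and activation genes 0 passed 1.5-fold, with a median of -0.02, Acot7 highest at 0.53 and the acyl-CoA synthetases Acsl4 and Acsl5 both at -0.14. Of 35 respiratory chain and ATP synthase subunit genes 0 passed, with a median of -0.01 and a range from -0.21 to 0.15, and of 19 tricarboxylic acid cycle genes 0 passed, with a median of 0.01. In phospholipid synthesis, Pcyt2, the rate-setting enzyme for phosphatidylethanolamine, was the single gene of 19 past the threshold, with 9.01 in the control, 8.42 with oleic acid, 8.57 with palmitic acid and 9.18 with linoleic acid. Its counterpart for phosphatidylcholine, Pcyt1a, was at 0.12, and Pla2g15, a lysosomal phospholipase, at 0.47. Of 23 ceramide and sphingolipid genes 18 were above 0 and 0 passed 1.5-fold, with a median of 0.10 and Ugcg, the glucosylceramide synthase, highest at 0.31.

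Genes for feedback inhibitors of signalling came next to the PPAR target list in the number of higher members. Of 18 kept dual specificity phosphatase, Sprouty and RGS genes, 4 were at least 1.5-fold higher with oleic acid and 0 lower. Of all kept genes 0.376% were higher by that margin. Above 0 were 10 members (55.6%), near the 55.3% of all kept genes, and the median was 0.06. Dusp1, which dephosphorylates p38 and JNK, had 11.65 in the control, 12.52 with oleic acid, 12.60 with palmitic acid and 11.84 with linoleic acid. Dusp10, of like specificity, had 8.17, 8.86, 9.57 and 8.20, so that here palmitic acid was clearly the highest. The ERK phosphatase genes differed from these: Dusp6 had 9.25 in the control, 10.04 with oleic acid, 8.71 with palmitic acid and 9.32 with linoleic acid, high in the oleic acid array and low in the palmitic acid array. Dusp5, its nuclear relative, had 8.54, 9.16, 8.92 and 8.64. In the same list Dusp7 was at 0.47, while Dusp4 (-0.23), Rgs2 (-0.44) and Spry1 (-0.33) lay below 0.

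Early-response transcription factor genes were mixed. Klf10, a factor first known as a TGF-beta early gene, had 8.71 in the control, 9.56 with oleic acid, 8.86 with palmitic acid and 8.88 with linoleic acid (0.85), and its relative Klf11 had 8.54, 9.22, 9.01 and 8.57 (0.69). Klf10 was therefore high in the oleic acid array alone, and Klf11 in both the oleic and palmitic acid arrays. Nr4a3, an orphan nuclear receptor of the immediate-early class, was lower, with 9.15 in the control and 8.55 with oleic acid (-0.60), although Nr4a1 was at 0.43 and Nr4a2 at -0.03. Egr1 was at 0.54, Btg2 at 0.42 and Ier3 at 0.33, none of them past 1.5-fold. Of 28 kept genes in the list 2 were higher, 1 lower and 18 above 0, with a median of 0.05. Among 17 AP-1 and CREB family genes 0 passed, with Fos highest at 0.58, Csrnp1 at 0.43 and Jun at 0.21, and a median of 0.06.

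Receptors at the macrophage surface gave several of the higher genes. Cd300a, an inhibitory receptor for phosphatidylserine and phosphatidylethanolamine, had 8.96 in the control, 9.91 with oleic acid, 9.77 with palmitic acid and 8.82 with linoleic acid, 1.93-fold higher with oleic acid. Cd300lb, an activating member of the family, had 7.24, 8.01, 8.47 and 7.46 (0.78). Cd300lf was at 0.43, and the remaining 5 of the 8 kept family members lay between -0.12 and 0.07. These genes form a cluster of related sequences whose probes may share signal. Fcgr1, the high-affinity receptor for immunoglobulin G, had 10.69 in the control, 11.34 with oleic acid, 10.03 with palmitic acid and 10.86 with linoleic acid, so that oleic and palmitic acid stood on opposite sides of the control. The other Fc gamma receptor genes ranged from -0.11 (Fcgr2b) to 0.19 (Fcgr3).

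Among 20 kept G protein-coupled receptor genes for chemokines, lipids and nucleotides, 2 were at least 1.5-fold higher and 1 lower, with a median of 0.02. Ccr1, a receptor for several CC chemokines, had 8.82 in the control, 9.77 with oleic acid, 9.27 with palmitic acid and 8.74 with linoleic acid. P2ry6, the receptor for extracellular UDP, had 10.31, 11.07, 9.89 and 10.51, another case of oleic acid above and palmitic acid below the control. Gpr85, an orphan receptor, had 9.97, 9.20, 8.48 and 10.00, lower with oleic acid and lower still with palmitic acid. Costimulatory genes leaned upward without passing 1.5-fold: of 14 kept, 11 were above 0, with a median of 0.12, and the largest were Tnfsf4 (0.48), Cd80 (0.45) and Cd86 (0.41). Of 19 scavenger and efferocytosis receptor genes 0 passed, with a median of 0.07.

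Inflammatory genes showed no common difference. The 45 kept cytokine and chemokine genes had a median of -0.03, and 21 of them were already at or above log2 12 in the control. Il1b was at 13.78 in the control and 13.78 with oleic acid, and Tnf was at 13.76 and 13.64. Both lay above log2 13, a level at which 0 of 147 genes passed 1.5-fold. Whether probes this bright could show a rise was not tested. Il23a, which codes for the subunit that sets this cytokine apart from its Il12b-sharing relative, was the single member past 1.5-fold, with 10.72 in the control, 11.33 with oleic acid, 11.11 with palmitic acid and 10.83 with linoleic acid. Il12b itself was at -0.41 and Il6 at -0.42, whereas the dim Il10 was at 0.50 and the monocyte chemokine gene Ccl7 at 0.49. Of 29 Toll-like receptor and NF-kB genes 0 passed, with a median of -0.03 and Tlr6 lowest at -0.35. Of 15 inflammasome genes 0 passed, with Il18 at -0.37, and of 28 interferon-stimulated genes 0 passed, with 22 above 0 and a median of 0.04. Ptgs2, the inducible cyclooxygenase, was at -0.05.

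Stress programmes were likewise close to the control. Of 25 integrated stress response genes 0 passed 1.5-fold in either direction, with a median of 0.05, Ddit3 highest at 0.21 and Atf4 at 0.09. In the palmitic acid array, against the same control, the list's median was 0.17, and Ddit3 was at 0.91. Of 27 endoplasmic reticulum chaperone and XBP1 or ATF6 target genes 0 passed, with a range from -0.11 to 0.22. Of 21 NRF2 antioxidant genes 15 were below 0 and 0 passed, with a median of -0.09. The lowest of these was Gclm, a subunit of the enzyme that sets glutathione synthesis, with 11.47 in the control, 10.94 with oleic acid, 12.20 with palmitic acid and 11.53 with linoleic acid, so that oleic and palmitic acid again lay on either side of the control. Slc7a11, the cystine carrier, was at -0.39. Heat shock, metallothionein, autophagy and BCL2 family genes had 0 members past 1.5-fold, with Mitf, a lysosomal and lineage factor, lowest at -0.47 in the autophagy list.

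A few further members of the lists stood far from lists that were otherwise flat. Hamp, which codes for the iron regulator hepcidin, had 7.99 in the control, 9.28 with oleic acid, 9.31 with palmitic acid and 8.11 with linoleic acid, 2.43-fold higher with oleic acid. Its near-identical copy Hamp2 was at 0.21 and may share signal with it. The iron list of 23 genes had a median of 0.05, with ceruloplasmin, Cp, lowest at -0.55. Smox, which oxidises spermine, had 9.58 in the control, 10.82 with oleic acid, 10.20 with palmitic acid and 9.75 with linoleic acid, 2.37-fold higher with oleic acid. In the same polyamine list of 14 genes, Odc1, the entry enzyme of synthesis, was at 0.50, Arg2 at 0.40 and Sat1, the acetyltransferase of breakdown, at -0.22.

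Arrdc3, an alpha-arrestin that directs receptors into endosomes, showed the widest gap between the oleic and palmitic acid arrays of any kept gene. It had 8.28 in the control, 9.35 with oleic acid, 7.04 with palmitic acid and 8.02 with linoleic acid, which put oleic acid at 1.07 and palmitic acid at -1.24 from the same control. Its relatives Arrdc1, Arrdc2, Arrdc4 and Txnip lay between 0.01 and 0.12 with oleic acid. Adm, which codes for the vasodilator adrenomedullin and is a HIF target, had 8.38 in the control, 7.56 with oleic acid, 7.86 with palmitic acid and 8.43 with linoleic acid (-0.82). The other 26 kept members of the HIF target and glycolysis list lay within 1.5-fold, with Pfkfb3 at 0.47 and Vegfa at 0.29. That list does not hold Hilpda (2.34) or Angptl4 (0.95), which were placed among the PPAR targets. It is therefore not a full account of genes that answer to HIF. Ccnd2, a cyclin of the first growth phase, was at 0.52, while of 21 replication and mitosis genes 0 passed and the proliferation marker Mki67 was lowest at -0.58. The 32 ribosomal protein and 34 proteasome genes had medians of -0.03 and -0.04.

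Of the 80 genes past 1.5-fold, 22 of the higher and 14 of the lower were in none of the lists. Among the higher, Tle3, a Groucho corepressor, had 10.74 in the control, 11.59 with oleic acid, 10.80 with palmitic acid and 10.94 with linoleic acid, high in the oleic acid array alone. The same held for Dgka, a diacylglycerol kinase (8.89, 9.54, 8.93 and 9.07 in that order), and for Neurl3, a ubiquitin ligase (9.32, 9.93, 9.42 and 9.41). Slc16a6, a member of the monocarboxylate transporter family, had 9.31, 10.02, 8.68 and 9.04, with palmitic acid lowest. Cyp1b1, a cytochrome P450 of the aryl hydrocarbon receptor response, had 8.83, 9.43, 8.20 and 9.13, again with palmitic acid lowest.

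The remaining higher genes lay between 0.59 and 0.72. They were Unc119 (0.72), a chaperone of lipidated proteins, Mmp19 (0.66), a matrix metalloproteinase, Mmd (0.65), Smim3 (0.65), Msl3l2 (0.64), Rnf144b (0.64), Bcar3 (0.64), Glul (0.63), the glutamine synthetase, Gab1 (0.63), a docking protein of receptor kinases, Tifab (0.63), Lpxn (0.62), Serpinb9 (0.62), the granzyme B inhibitor, Fam78b (0.62), Rhov (0.62), Dhrs3 (0.60), a retinal reductase, Mospd1 (0.59) and B3gnt5 (0.59). For Bcar3, Gab1, Serpinb9 and Rhov the palmitic acid array was higher than the oleic acid array. Rhov was also dim, at 6.83 in the control, and its difference was 0.35 when values were floored at the median.

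On the lower side, Shisa3, an adaptor that retains receptors in the endoplasmic reticulum, had 10.70 in the control, 9.49 with oleic acid, 9.37 with palmitic acid and 10.84 with linoleic acid, 2.31-fold lower with oleic acid. Lipg, the endothelial lipase, had 8.92, 8.01, 8.34 and 9.20 (-0.91), and Kctd12b had 9.97, 9.07, 9.02 and 9.71 (-0.90). Pdgfrb, the platelet-derived growth factor receptor beta, had 10.04, 9.33, 8.74 and 10.20 (-0.71). Pdgfrb is also the single mesothelial and fibroblast marker past the threshold. Of the 15 markers 10 were kept, with 3 above 0 and 7 below, Pdgfrb among the latter. The other kept markers lay between -0.12 and 0.12, Msln and Col1a1 at 0.01 and -0.08 among them. The summed log2 level of the 10, Pdgfrb included, went from 87.2 to 86.3, and such a sum does not measure the share of these cells. The part of such cells in the Pdgfrb value was not tested.

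Kcnj2, an inward rectifier potassium channel, and Mir146, the precursor locus of a microRNA, were both dim in the oleic acid array, at 6.30 and 6.26 against 7.38 and 7.19 in the control. Their differences of -1.09 and -0.92 became -0.29 and -0.10 when values below the median were floored, and the array does not measure the mature microRNA. Tmem178, a regulator of calcium release, had 10.13 in the control, 9.49 with oleic acid, 10.69 with palmitic acid and 10.31 with linoleic acid, and like Insig1 it was low in the oleic acid array alone. The other lower genes outside the lists were Trim36 (-0.71), Gm14636 (-0.70), Ptx3 (-0.69), a soluble pattern recognition protein, Echdc1 (-0.67), Lox (-0.66), the lysyl oxidase of collagen, Itgb8 (-0.62), an integrin chain that activates TGF-beta, Zfp971 (-0.62) and Pdp2 (-0.61), a phosphatase that turns on pyruvate dehydrogenase. Gm14636 and Zfp971 are a predicted model and a member of a large zinc finger family, whose probes may bind relatives.

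**Figure D4:**
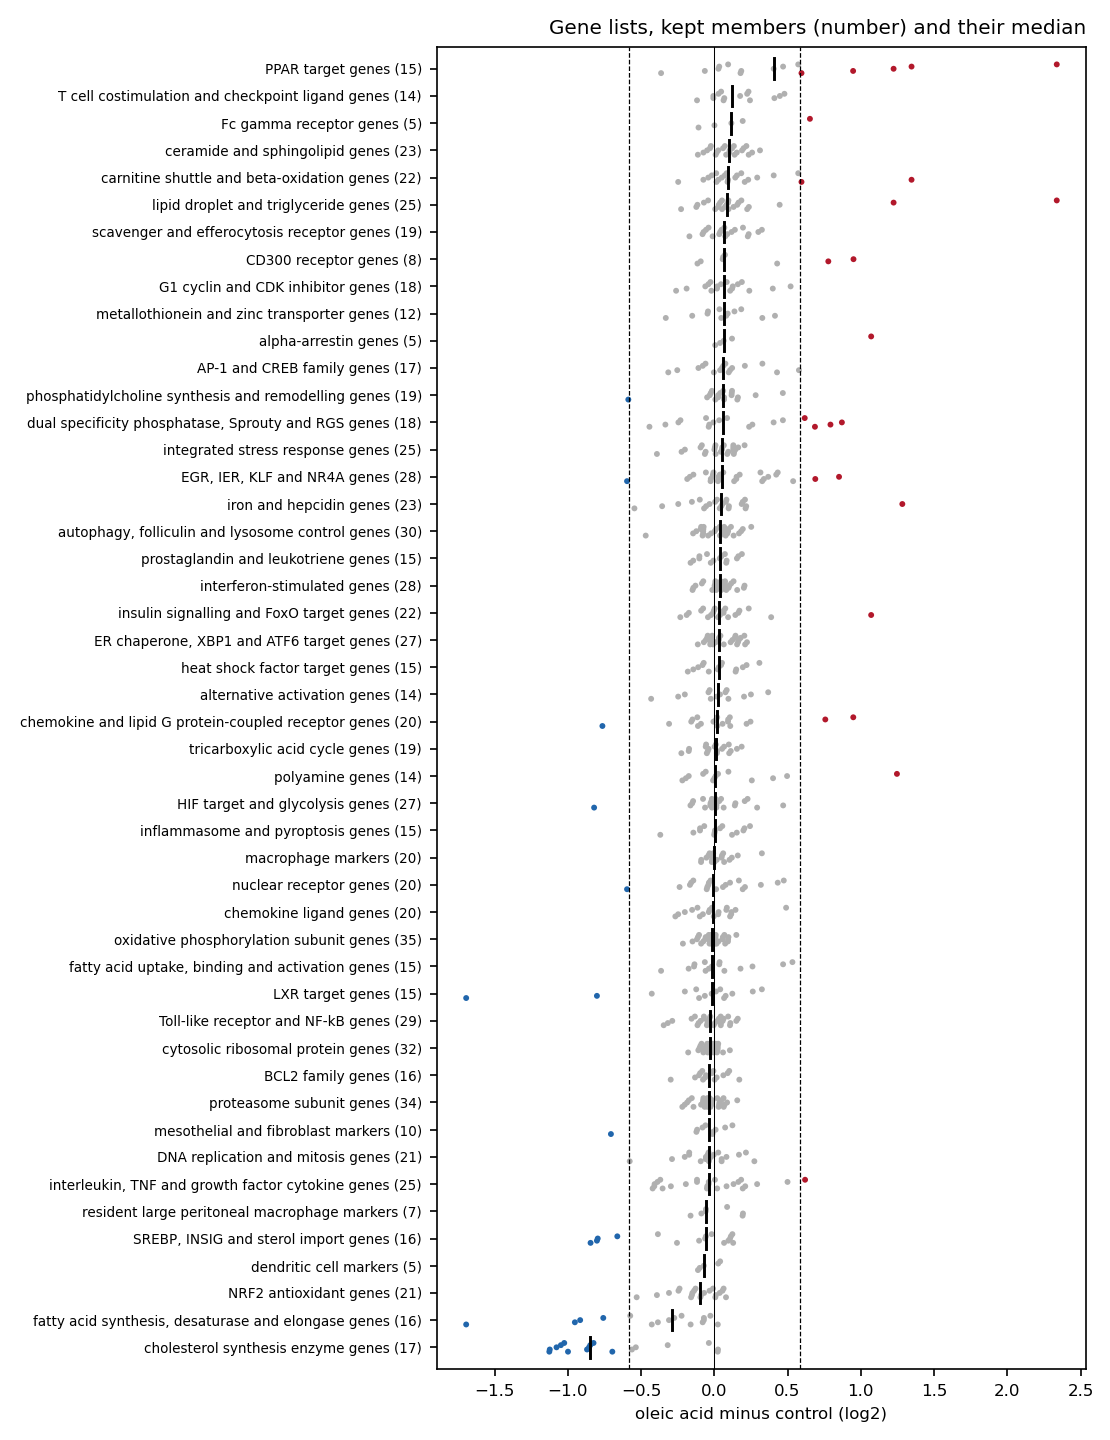
Each row is 1 of the 48 lists with at least 5 kept members (number in brackets), each point 1 gene at its oleic acid minus control difference (log2, x axis), with the list's median as a black bar, red and blue for genes past 1.5-fold, and dashed lines at 1.5-fold. The cholesterol synthesis median (-0.85), the fatty acid synthesis median (-0.29) and the PPAR target median (0.41) stand away from 0, and 42 of the 48 medians lie within 0.1 of it.

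The plot of gene lists sets these classes side by side. Of 48 lists with at least 5 kept members, 27 had no member past 1.5-fold in either direction. The lists were written with earlier results of these arrays known, so that the order of the classes is a description of the 2 arrays.

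The palmitic and linoleic acid arrays were compared with the same control array, whose own error enters each of these differences. At least 1.5-fold from the control were 2.17% of kept genes upward and 1.41% downward with palmitic acid, and 0.0358% each way with linoleic acid. The 42 genes higher with oleic acid had a median difference of 0.65 with oleic acid, 0.38 with palmitic acid and 0.09 with linoleic acid. Of them 14 were also at least 1.5-fold higher with palmitic acid, 4 were at least 1.5-fold lower with it (Arrdc3, Fcgr1, Slc16a6 and Cyp1b1), and 34 had their highest level of the 4 arrays with oleic acid. The 38 lower genes had medians of -0.82, -0.61 and 0.14 in the same order, 22 lay 1.5-fold or more below the control with palmitic acid and 0 above it, and 28 had their lowest level with oleic acid. None of the 80 genes was 1.5-fold from the control with linoleic acid, where the highest level of the 4 arrays was found for 30 of the 38 lower genes. With 1 array per fatty acid the differences between the acids could not be tested.

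The difference of palmitic acid minus linoleic acid shares no array with that of oleic acid minus control. For the 38 lower genes its median was -0.80, against -0.03 over all kept genes, 35 were below 0, and 29 were at least 1.5-fold lower, which 2.01% of kept genes were. For the 42 higher genes its median was 0.29, 31 (73.8%) were above 0, against 42.5% of all kept genes, and 12 were at least 1.5-fold higher, which 1.58% of kept genes were. A further 5 of the 42 were at least 1.5-fold lower with palmitic than with linoleic acid. The lower genes thus lay on 1 side in this second pair of arrays, with 3 exceptions, and the higher genes on both sides. The exceptions were Tmem178 (0.38), Zfp971 (0.37) and Gm14636 (0.31), and of the 35 below 0, Insig1 (-0.05) and Pdp2 (-0.03) lay close to it.

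**Figure D5:**
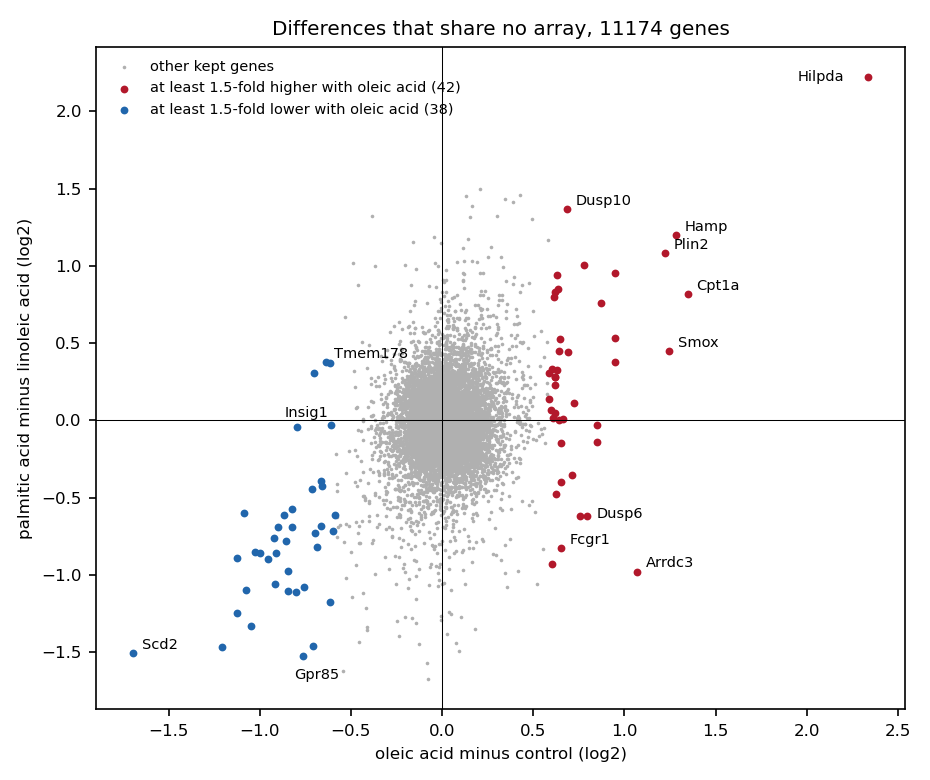
Each point is 1 of 11174 genes, with oleic acid minus control on the x axis and palmitic acid minus linoleic acid on the y axis (both log2); red and blue mark the 42 genes higher and 38 genes lower by at least 1.5-fold with oleic acid. Blue points lie below 0 on the y axis in 35 of 38 cases, with Insig1 just below it and Tmem178 above it. Red points spread from Hilpda (2.22 on the y axis) to Arrdc3 (-0.98).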

How the data were processed

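Total RNA of pooled peritoneal macrophages was measured on 4 Affymetrix arrays, 1 per group, of which the control and oleic acid arrays enter the difference. The authors deposited log2 expression values made with RMA, per the submitters' processing notes. RMA corrects background, normalises the arrays together and summarises probes, which can shrink differences of dim probes. Not given in the sources used here are its version, its level of summary and the genome build. Values ran from 2.28 to 14.4, which sets the scale as log2. No depth applies to arrays, and their number limits the precision.

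Of 35556 probes, the platform annotation lists 23410, with exactly 1 gene for 21789. Symbols were checked by Entrez ID in a RefSeq table of GRCm38.p6, which held 21698 of them, and 0 needed an update. Probes of a gene were averaged, genes below the brightness filter were left out, and the rest were subtracted and counted past 1.5-fold (Python 3.11.15, pandas 2.3.3, numpy 2.4.6). The counting was tested on simulated data. The 52 lists hold 1076 genes, of which 997 were measured, 79 are not analysed here and 856 were kept; 71 are in more than 1 list.

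Members and lists were chosen with earlier results of these data known. The text names the 20 most different genes on each side (no predicted, clone or small RNA names), list members past 1.5-fold, the 5 extremes of each list, the sterol, oxidation, PPAR and droplet lists whole, the other genes past 1.5-fold, and a set of 20 regulators. Alternatives were centring, repeated quantile normalisation, 4 other filters, other uses of probes, a floor and other thresholds.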

Additional observations from a re-analysis of the deposited data

Results flagged for a closer look

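Probes outside the comparison of genes also differed between the oleic acid and control arrays. Probes that passed the brightness filter but have no gene in the platform annotation used here numbered 5620. Of these, 33 were at least 1.5-fold higher with oleic acid and 131 at least 1.5-fold lower, with a highest difference of 1.03 and a lowest of -1.67. Of the 11174 kept genes, 42 (0.376%) were higher and 38 (0.34%) lower by that margin. More of the unlisted probes past it were lower than higher, whereas the kept genes were nearly even. Among 848 bright probes listed with several genes, 0 were higher and 2 lower by that margin. These 2 were a probe of Utp14b and Acsl3 (-0.94) and a probe of Il4i1b and Il4i1 (-0.73), named after their values were seen. There are no replicates to compare them with, and no gene is given for the unlisted probes.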

How the results depend on the processing

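No paired analysis was possible because each group is 1 array, and for the same reason no replicate could be left out. At a threshold of 2-fold, 6 genes were higher and 8 lower with oleic acid, and at 1.3-fold 161 were higher and 113 lower, as the construction of these thresholds implies. Under the alternatives at 1.5-fold, higher genes numbered 33 to 50 and lower genes 32 to 42, and higher genes were 50.6% to 56.1% of those past the threshold. Without the brightness filter, which adds dim genes, the median was 0.18 for PPAR target genes, -0.13 for fatty acid synthesis genes, 0.051 for resident peritoneal macrophage markers and 0.040 for dendritic cell markers. Under the stricter filter 4 CD300 genes remained, with a median of 0.24. The other medians of the 48 lists stayed within 0.1 of the values above under each alternative run. Centring the arrays put Fos (0.60) and Slc25a20 (0.59) past 1.5-fold and Nr4a3 (-0.58) and Pcyt2 (-0.57) short of it, and repeated quantile normalisation put Fos past it (0.60). Adding probes of several genes brought Zfp971 to -0.26, and flooring brought Kcnj2 to -0.29, Mir146 to -0.10 and Rhov to 0.35. No named difference past 1.5-fold changed sign under these alternatives.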
